A study of Sus scrofa with 61 samples.

Results

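In all, 9 genes of oxygen storage, haem and iron handling were followed in the longissimus muscle of fetal pigs: MB, HBB, TFRC, TF, FTH1, FTL, HMOX1, SLC40A1 and ALAS1. A probe was taken as a member when its gene name on the array, or its symbol in the gene lists of the study, was one of these names. Of the 9 genes, 8 had a probe among the 11122 gene symbols of the array, with 27 probes in all, and 7 had a probe bright enough to be tested, with 25 probes. ALAS1, the first enzyme of haem synthesis outside red cells, had no probe. The only probe of SLC40A1, the iron exporter ferroportin, was well above background on 2 of 61 arrays and was not tested.

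RNA of the whole muscle of each fetus was labelled with 1 dye and hybridized to its own porcine oligonucleotide array, 61 arrays in all. LW were purebred Large White fetuses and MS purebred Meishan fetuses, while LWMS fetuses had a MS dam and a LW sire, and MSLW fetuses a LW dam and a MS sire. At day 90 of gestation there were 8 fetuses of each of the 4 genotypes, and at day 110 there were 9 LW, 7 MS, 8 LWMS and 5 MSLW fetuses. The methods of the study state that all fetuses were males taken by caesarean, and that sows received semen of both breeds, so that purebred and crossbred fetuses shared litters. The dam of each fetus was not used here, so p-values measure the spread between fetuses, some of which may be littermates, and the breed of a purebred fetus cannot be told apart from the breed of its dam.

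Levels are given as log2 of the normalized intensity of a probe, and differences between groups on the same log2 scale, so that a difference of 1 is a doubling. Tests are the moderated two-sided tests of limma with Benjamini-Hochberg adjustment over all 42436 tested probes, and a probe was called at an adjusted p under 0.01. The level of one probe cannot be set against that of another, because probes differ in binding. Where a gene had several probes, 1 main probe was fixed by a rule, and the others are given beside it. In whole muscle, fewer cells of a type and less RNA per cell cannot be told apart.

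Myoglobin, the product of MB, binds oxygen through a haem group inside muscle fibres and is known to be richest in slow and oxidative fibres. Iron reaches cells mostly on transferrin (TF), which is taken up by the transferrin receptor (TFRC), is built into haem and iron-sulphur clusters in mitochondria, and is stored in a shell of ferritin heavy (FTH1) and light (FTL) chains. Haem oxygenase 1 (HMOX1) opens the haem ring and frees its iron, and is abundant in macrophages that clear red cells. When iron is scarce, iron regulatory proteins are known to stabilise the TFRC message and to block translation of the ferritin messages, a step that RNA levels do not show.

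The probe sequences below, each of 60 bases as given by the scanner files, are those on which the results turn. MB had a single probe. The TFRC probe shown is the one of middle brightness, the only one of that gene named through a pig reference transcript. For HMOX1 and TF, which each had 3 kept probes on pig transcripts, a probe other than the main one is shown: the HMOX1 probe that changed by -1.79 with age, and the TF probe that changed by 0.30. The FTH1 probe is 1 of the 5 whose age change differed between the pure breeds. In the FTL pair, capitals mark a run of 44 bases that both probes hold on opposite strands. The second FTL probe is thus not a further reading of the strand that the main probe reads.
MB: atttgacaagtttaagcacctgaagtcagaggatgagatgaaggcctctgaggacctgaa
TFRC: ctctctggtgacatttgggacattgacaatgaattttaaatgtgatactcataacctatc
TF: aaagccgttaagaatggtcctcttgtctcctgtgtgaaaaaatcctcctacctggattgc
FTH1: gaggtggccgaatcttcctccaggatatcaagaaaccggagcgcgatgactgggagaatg
FTL main: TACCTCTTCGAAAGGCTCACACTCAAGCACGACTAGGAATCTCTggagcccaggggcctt
FTL other: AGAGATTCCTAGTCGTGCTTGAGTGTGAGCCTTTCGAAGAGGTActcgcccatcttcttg
HMOX1: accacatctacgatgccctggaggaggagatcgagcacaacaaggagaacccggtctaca

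The members did not move as a block. From day 90 to day 110 MB and the brightest probe of TFRC rose, the main probes of HMOX1 and FTL fell, and those of HBB and TF did not pass the test. The main probe of FTH1 passed as lower by 0.11, a direction that turned to higher by 0.43 under 75th percentile scaling, where each array is only shifted to a common 75th percentile and not quantile normalized. Over the 4 genotypes, 5 of 7 main probes and 12 of 25 member probes were called (6 higher and 6 lower), against 72.3% of all tested probes (37.3% higher and 35% lower). The main probe of TFRC and a dim probe of TF, both among the 6 higher, passed the brightness filter only through groups of day 110. They were higher there, so their calls carry no weight in these counts of main and member probes. The median difference over the 7 main probes was -0.11 and that over all tested probes was 0.04.

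Between 34346 and 45683 probes were well above background on an array, with group medians of 42933.5 to 43550 at day 90 and of 40742 to 42386 at day 110, and no member value was saturated. The arrays lay on 8 slides, each with fetuses of most groups, and 1 scan day. Markers of the labelled tissue were present: 10 of 11 skeletal fibre genes were kept, with a summed linear intensity of 1790650 to 2085520 at day 90 and of 2087090 to 2472500 at day 110.

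**Figure D1:**
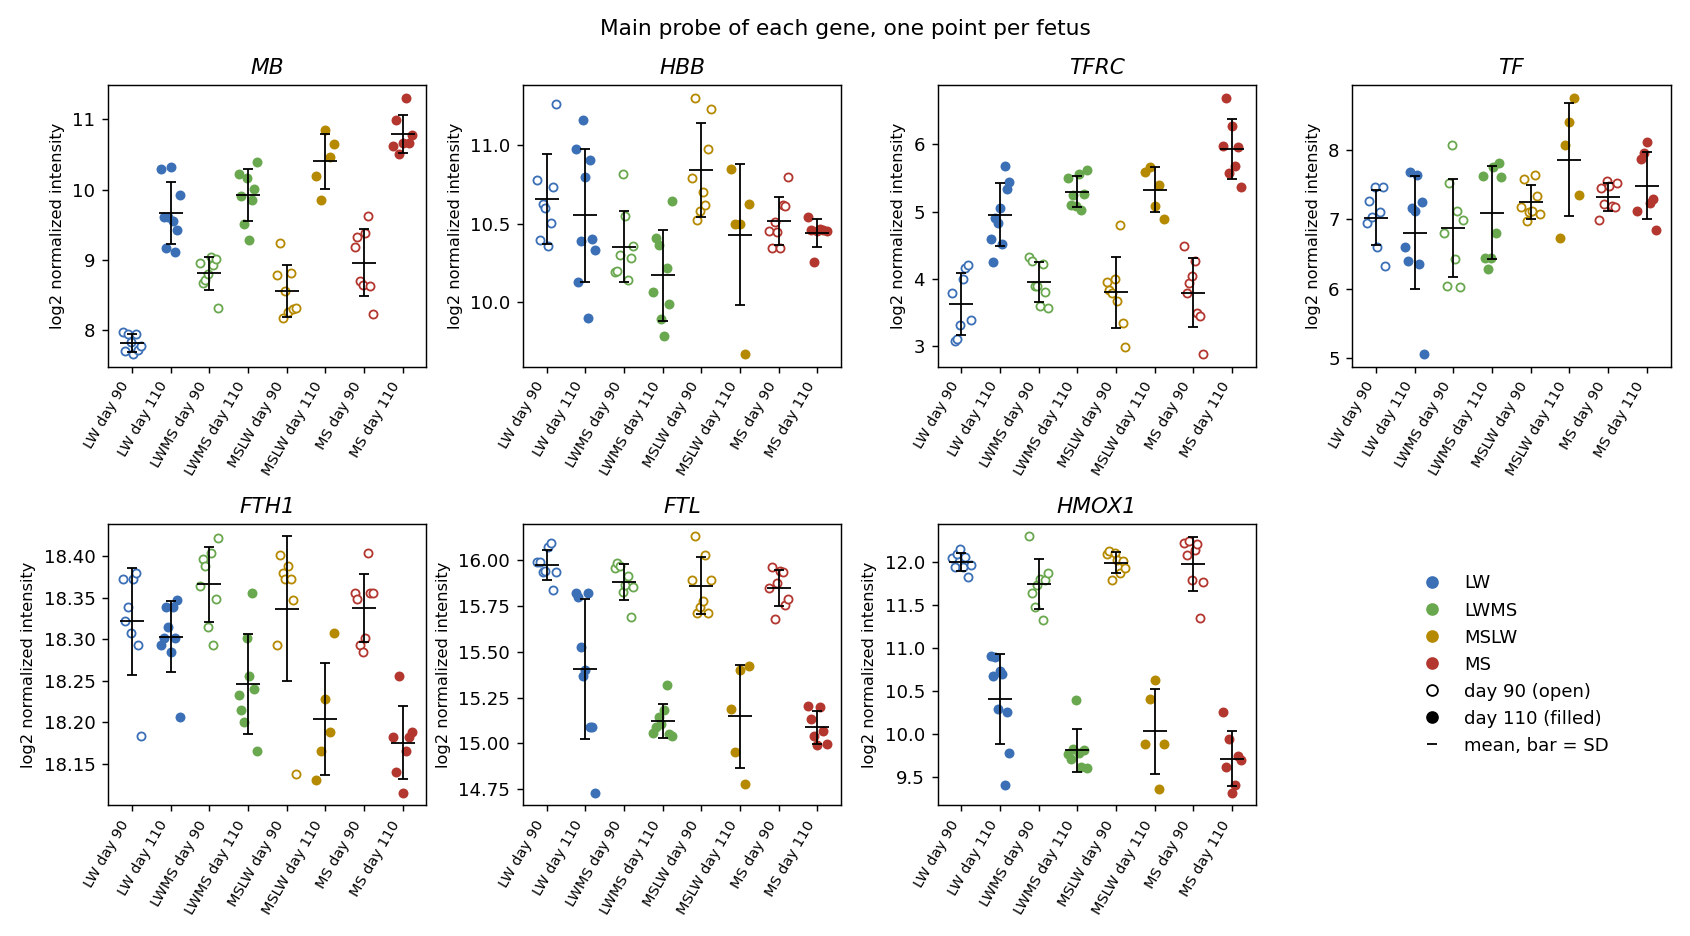
Log2 normalized intensity (vertical axis) of the main probe of MB, HBB, TFRC, TF, FTH1, FTL and HMOX1, 1 panel per gene and 1 point per fetus, in the 8 groups of genotype and gestational day (open points day 90, filled points day 110; lines show the group mean with its SD). MB and TFRC lie higher at day 110 in every genotype, HMOX1 lies lower at day 110 with no overlap between the ages, and the groups of HBB and TF overlap; the small shift of FTH1 turns its direction under 75th percentile scaling.

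MB rose with age in every genotype and was higher in MS than in LW at both ages. In LW its log2 level at day 90 was lowest at 7.66, had a median of 7.80 and reached 7.97, and at day 110 it ran from 9.11 through a median of 9.61 to 10.32. In MS it ran from 8.22 through a median of 8.95 to 9.62 at day 90. In MS at day 110 the lowest level was 10.51, the median 10.67 and the highest 11.31. Each MS fetus thus lay above each LW fetus of its age, and in both breeds the ages did not overlap.

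The crosses lay between the breeds or close to one of them. LWMS fetuses had MB levels of 8.32 to 9.04 with a median of 8.87 at day 90, and of 9.29 to 10.40 with a median of 9.96 at day 110. MSLW fetuses ranged from 8.17 to 9.24 with a median of 8.43 at day 90. The 5 MSLW fetuses of day 110 had MB levels of 10.19, 9.86, 10.84, 10.47 and 10.65. In each cross all fetuses of day 110 lay above all those of day 90.

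Ordered by mean level, the groups ran from LW at day 90 (7.82 ± 0.12, SD, n = 8) through MSLW (8.55 ± 0.37, n = 8), LWMS (8.81 ± 0.24, n = 8) and MS (8.96 ± 0.48, n = 8) at day 90. They went on with LW (9.67 ± 0.44, n = 9), LWMS (9.92 ± 0.37, n = 8), MSLW (10.40 ± 0.39, n = 5) and MS (10.79 ± 0.27, n = 7) at day 110. Neighbours whose means differed by less than their SD were MSLW and LWMS at day 90, LWMS and MS at day 90, and LW and LWMS at day 110. The crosses thus stood in opposite order at the 2 ages, which was not a called difference at either.

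Averaged across genotypes, MB rose by 1.66 in log2 units (SE 0.09, adjusted p = 2.97e-24), or 3.16-fold. It was 1.85 in LW (SE 0.17), 1.83 in MS (SE 0.18), 1.85 in MSLW (SE 0.20) and 1.11 in LWMS (SE 0.17, adjusted p = 1.68e-07). The rise in MS differed from that in LW by -0.02 (95% interval -0.51 to 0.48, adjusted p = 0.975). The F test of whether the 4 genotypes differed in their rise gave an adjusted p of 0.0811 for MB, against 3.17% of all probes called. MS exceeded LW by 1.14 at day 90 (SE 0.17, adjusted p = 9.34e-07, 2.21-fold) and by 1.12 at day 110 (SE 0.18, adjusted p = 6.28e-07, 2.18-fold). Within slides the rise with age ran from 1.27 to 2.17 on 8 of 8 slides, and MS exceeded LW by 0.45 to 1.72 on 8 of 8 slides at day 90 and by 0.32 to 1.70 on the 6 slides that held both at day 110.

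Myoglobin is known to be rich in slow fibres. Of 7 kept genes of the slow fibre list 5 were higher and 0 lower at day 110, a share close to the 72.3% of all tested probes called in either direction, with a summed linear intensity of 365558 to 607213 at day 90 and of 572874 to 787856 at day 110. In MS against LW at day 110, 1 of the 7 was higher (ATP2A2, 0.46) and 1 lower (MYOZ2, -0.48), and under 75th percentile scaling 4 were higher and 0 lower. MYH7, the slow myosin heavy chain, differed by 0.05 (adjusted p = 0.433), and by 0.39 (adjusted p = 7.91e-05) under the scaling. The part of fibre type in the MB values was not tested.

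TFRC, which carries transferrin-bound iron into the cell, was higher at day 110 at all 3 of its probes. Its main probe was dim: it was well above background in 17 of 32 fetuses at day 90 and in 26 of 29 at day 110, and it was kept only through groups of day 110, so its values are given as a description. In LW the main probe ran from 3.08 through a median of 3.59 to 4.21 at day 90, and from 4.25 through a median of 4.91 to 5.67 at day 110. In MS it ran from 2.89 through 3.86 to 4.49 at day 90, and from 5.36 through 5.95 to 6.69 at day 110. In LWMS the log2 levels ran from 3.58 through a median of 3.90 to 4.33 at day 90, and from 5.02 through 5.26 to 5.62 at day 110. In no genotype did the ages overlap at this probe, and MS and LW overlapped at day 110.

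The 8 MSLW fetuses of day 90 had TFRC levels of 2.99 to 4.80 with a median of 3.82, and the 5 of day 110 had levels of 5.60, 5.67, 5.08, 5.40 and 4.89. The brightest TFRC probe was well above background on all arrays, and its log2 level ran from 11.83 through a median of 12.16 to 12.47 at day 90 and from 12.61 through 13.31 to 14.71 at day 110. At that probe the fetuses of day 110 all lay above those of day 90, whatever the genotype.

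Over the 4 genotypes TFRC rose by 1.25 at the brightest probe (SE 0.08, adjusted p = 1.87e-21) and by 1.57 at the middle probe, which was well above background on 59 of 61 arrays. The difference at the dim main probe was 1.58 over the genotypes, with 1.33 (LW) and 2.14 (MS) in the pure breeds, and 1.35 (LWMS) and 1.53 (MSLW) in the crosses. The 1.58 of the main probe shrank to 0.71 with the median signal, from which the local background was not subtracted. It shrank to 0.45 with normexp background correction and its added offset, while the brightest probe kept 1.26 under each setting.

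At day 90 MS and LW differed by -0.09 to 0.16 over the 3 TFRC probes, none of them called, with the 0.16 at the dim main probe. At day 110 TFRC was higher in MS by 0.60 (adjusted p = 0.00132) at the brightest probe and by 0.83 (adjusted p = 0.000598) at the middle one. The difference at the dim main probe was 0.97 (SE 0.21), given without a test. At the brightest probe LW fetuses of day 110 ran from 12.61 through 13.15 to 13.85 and MS fetuses from 13.27 through 13.64 to 14.71, so the breeds overlapped. The rise with age was larger in MS than in LW by 0.69 (adjusted p = 0.0242) at the brightest probe and by 0.70 (adjusted p = 0.0835) at the middle one, neither called. At the dim main probe this difference was 0.81, and 0.37 under normexp correction, both given without a test. On the 6 slides with both breeds at day 110, the dim main probe was higher in MS on 5, with differences of -0.14 to 1.38, also a description only.

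TF, the plasma carrier that delivers iron to TFRC, is made mainly by the liver and also by other tissues. At its main probe LW fetuses ran from 6.33 through a median of 7.06 to 7.47 at day 90 and from 5.06 through 7.12 to 7.67 at day 110. MS fetuses ran from 6.99 through 7.34 to 7.55 at day 90 and from 6.84 through 7.29 to 8.11 at day 110. The 5 MSLW fetuses of day 110 had levels of 6.73, 8.06, 8.39, 8.75 and 7.35, which include the highest of the series. The groups overlapped throughout.

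The age change of TF was 0.19 at the main probe (SE 0.15, adjusted p = 0.225), and a second probe rose by 0.30 (adjusted p = 0.000709). The dimmest kept probe, well above background on 25 of 61 arrays and kept only through MSLW at day 110, where it was highest, differed by 0.49, which is given without a test. MS exceeded LW at day 110 by 0.68 (SE 0.29, 95% interval 0.11 to 1.25, adjusted p = 0.0526) at the main probe, which was not called. Of 8 listed liver genes 6 were kept, and 2 rose and 2 fell with age, with a summed intensity of 33118 to 53921 at day 90 and of 13217 to 29516 at day 110. The part of liver-type messages in the TF values was not tested.

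HMOX1 fell with age at every probe and in every genotype. At the main probe the log2 level ran from 11.32 through a median of 11.96 to 12.30 in the 32 fetuses of day 90, and from 9.32 through 9.82 to 10.91 in the 29 of day 110. The 2 ages were apart over all fetuses. At day 90 the LW fetuses held from 11.82 through 12.01 to 12.15 and the MS fetuses from 11.35 through 12.11 to 12.24, so the breeds overlapped.

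At day 110 HMOX1 in LW ran from 9.41 through a median of 10.68 to 10.91, and in MS from 9.32 through 9.70 to 10.26. LWMS fetuses ran from 9.61 through 9.78 to 10.40, with a single fetus far above the others. The 5 MSLW fetuses had levels of 9.89, 10.41, 10.63, 9.36 and 9.88. Most LW fetuses were thus above all MS fetuses, and a few were among them.

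The fall of HMOX1 over the 4 genotypes was -1.94 (SE 0.08, adjusted p = 6.35e-29), that is, 3.83-fold, and -1.63, -1.45 and -1.79 at its other probes. At the main probe LW changed by -1.60 and MS by -2.26, and the crosses LWMS and MSLW by -1.93 and -1.96. The change in MS was more negative than that in LW by -0.66 (95% interval -1.12 to -0.20, adjusted p = 0.0426), which was not called. MS and LW differed by -0.03 at day 90 (adjusted p = 0.935) and by -0.69 at day 110 (SE 0.16, adjusted p = 0.000484), or 1.62-fold lower in MS. Of the other probes at day 110, 1 was called (-0.88, adjusted p = 0.0034) and the others were not (-0.32, adjusted p = 0.0798, and -0.35, adjusted p = 0.0972). Within slides the fall with age ran from -2.29 to -1.63 on 8 of 8 slides, and MS lay below LW on 6 of 6 slides at day 110, by -1.58 to -0.13.

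Macrophages hold much of the haem oxygenase of many tissues. Of 12 kept macrophage genes of 14 listed, 9 were lower and 1 higher at day 110, against 72.3% of all probes called in either direction (35% lower), and the summed intensity went from 10501 to 15354 at day 90 down to 4832 to 9243 at day 110. Of these genes AIF1 changed by -1.32 and the complement gene C1QB by -1.21, while CD163, the receptor for haemoglobin bound to haptoglobin, changed by -0.22 (adjusted p = 0.0118, not called). The macrophage sums of the breeds overlapped at day 110, with 4832 to 9243 in LW and 5651 to 8128 in MS, and 2 genes were higher (MSR1, 0.75, and CD14, 0.52) and 0 lower in MS. The endothelial list moved beside HMOX1 too, with 4 of 7 kept genes lower and 2 higher, a median of -0.98 and a summed intensity of 53395 to 74165 at day 90 and of 22536 to 40420 at day 110. The part of macrophages or of endothelial cells in the fall of HMOX1 was not tested.

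**Figure D2:**
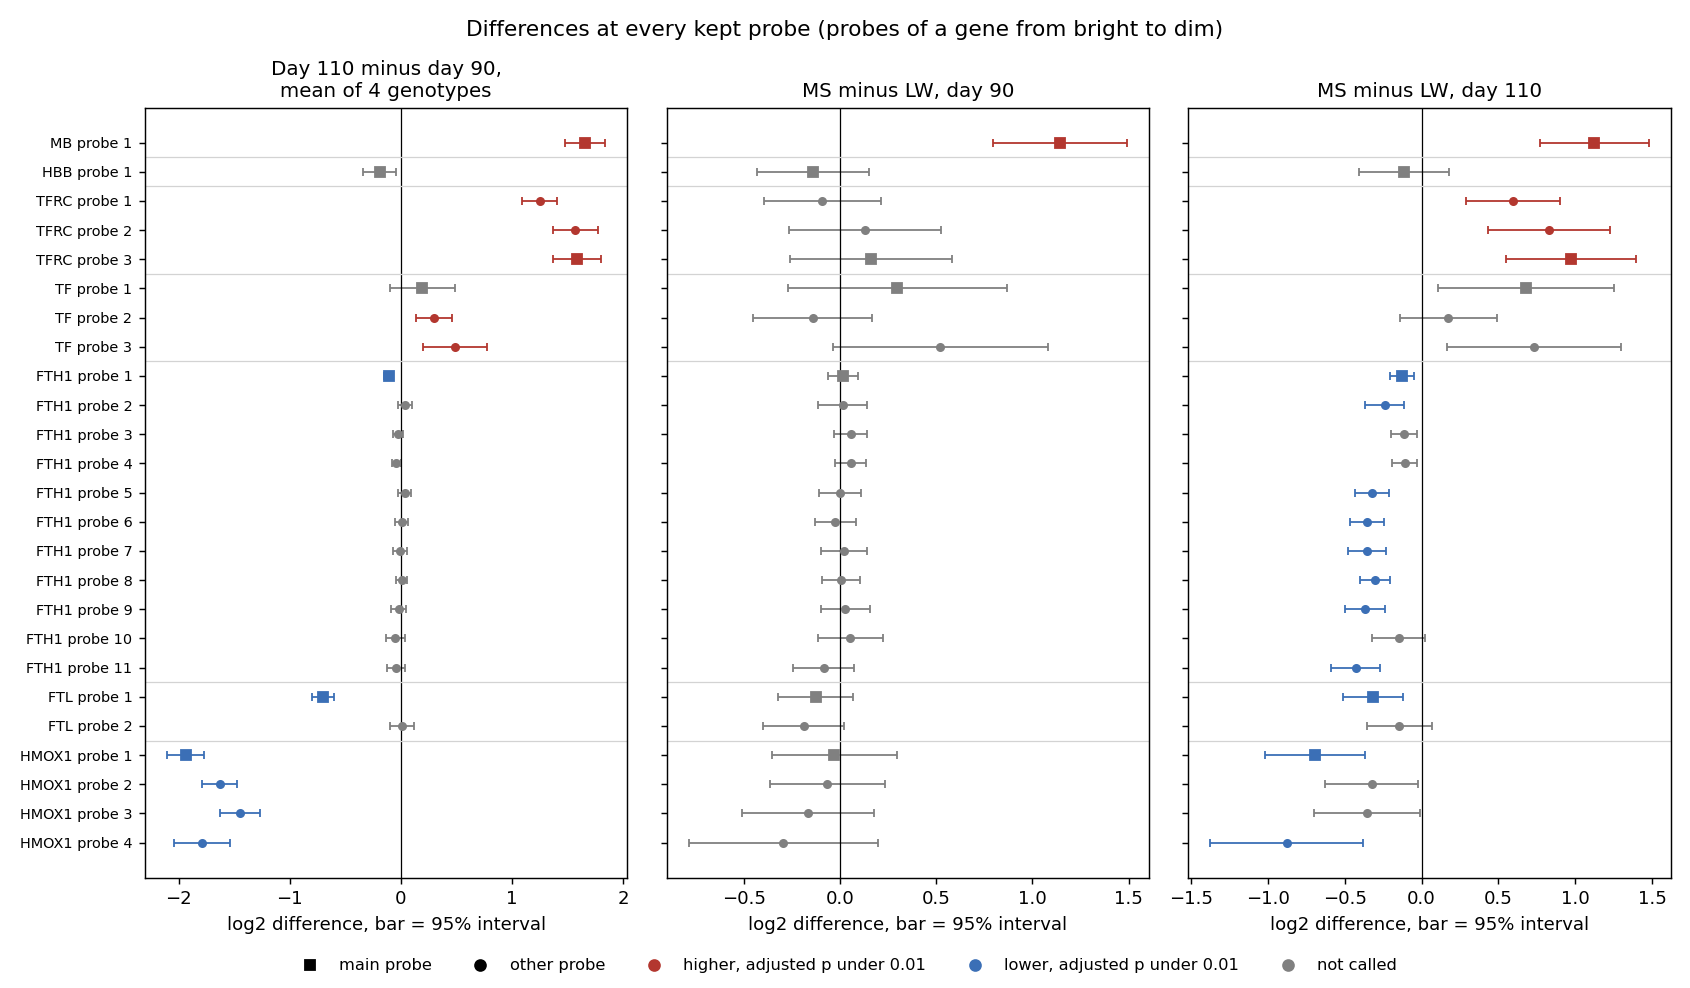
Log2 difference with its 95% interval (horizontal axis) for each of the 25 tested member probes, ordered by gene: day 110 minus day 90 over the 4 genotypes, MS minus LW at day 90, and MS minus LW at day 110. Squares mark main probes and circles the others, with called probes in red (higher) and blue (lower); MB stands alone as called at day 90, and 15 probes are called at day 110, where the blue FTH1 probes lose their call under 75th percentile scaling.

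FTL, the ferritin light chain, fell at its bright main probe. In LW it ran from 15.84 through a median of 15.97 to 16.10 at day 90 and from 14.73 through 15.40 to 15.82 at day 110. In MS it ran from 15.68 through 15.86 to 15.96 at day 90 and from 14.99 through 15.07 to 15.20 at day 110. The 5 MSLW fetuses of day 110 had levels of 15.19, 14.95, 15.40, 14.78 and 15.42. In both pure breeds the ages did not overlap, and LW at day 110 was spread around MS.

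FTL changed by -0.70 with age (SE 0.05, adjusted p = 5.02e-19, 1.63-fold). The change was -0.57 in LW and -0.76 in MS, and the crosses LWMS and MSLW changed by -0.76 and -0.71. The second FTL probe, on the opposite strand of the shared run, changed by 0.01 (adjusted p = 0.857). Under 75th percentile scaling the fall over the genotypes was -0.19 and still called, whereas in single genotypes it was not. Among 449 other probes within 0.5 log2 of the brightness of FTL, the median age change was -0.25 with quantile normalization and 0.27 with the scaling. MS was lower than LW at day 110 by -0.32 (SE 0.10, adjusted p = 0.00743), a call that was lost under the scaling (-0.04, adjusted p = 0.775).

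FTH1, the ferritin heavy chain that oxidises iron for storage, was read by 11 probes, among the brightest of the array. The main probe ran from 18.14 to 18.42 over the fetuses of day 90 and from 18.12 to 18.36 over those of day 110, so the ages overlapped. Its age change over the genotypes was -0.11 (SE 0.02, adjusted p = 2.17e-06), and the other 10 probes changed by -0.05 to 0.04 with none called. Under 75th percentile scaling all 11 probes were called as higher at day 110, by 0.43 to 0.54. The 392 other probes that were as bright had a median age change of -0.06 with quantile normalization and of 0.46 with the scaling, and FTH1 had a median of -0.02 and 0.50, so FTH1 moved with the probes of its brightness under both.

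By genotype, 5 of the 11 FTH1 probes rose in LW (range -0.02 to 0.24) and 2 fell in MS (range -0.22 to -0.02), against 45.3% and 56.6% of all probes called (21.8% higher in LW and 28% lower in MS), while under the scaling all 11 rose in each breed, by 0.31 to 0.51 in LW and by 0.53 to 0.68 in MS. The age change was more negative in MS than in LW at 5 of 11 probes (range -0.39 to -0.14), against 5.96% of all probes called (3.4% in that direction), and at 0 of 11 under the scaling (range 0.09 to 0.28). MS was lower than LW at day 110 at 8 of 11 probes (range -0.43 to -0.11), against 29% of all probes called (15.2% lower). Among the 392 equally bright probes 32.7% were called in either direction. Under the scaling MS was called as lower at 0 of 11 FTH1 probes (range -0.07 to 0.24). The equally bright probes had a median difference between the age changes of MS and LW of -0.09 with quantile normalization and 0.35 with the scaling, and FTH1 of -0.31 and 0.17. FTH1 thus lay below the median of equally bright probes in this comparison under both, a description without a test. Of 55 pairs of FTH1 probes, 10 shared a run of at least 8 bases, the longest of 35, so the probes are not independent readings.

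**Figure D3:**
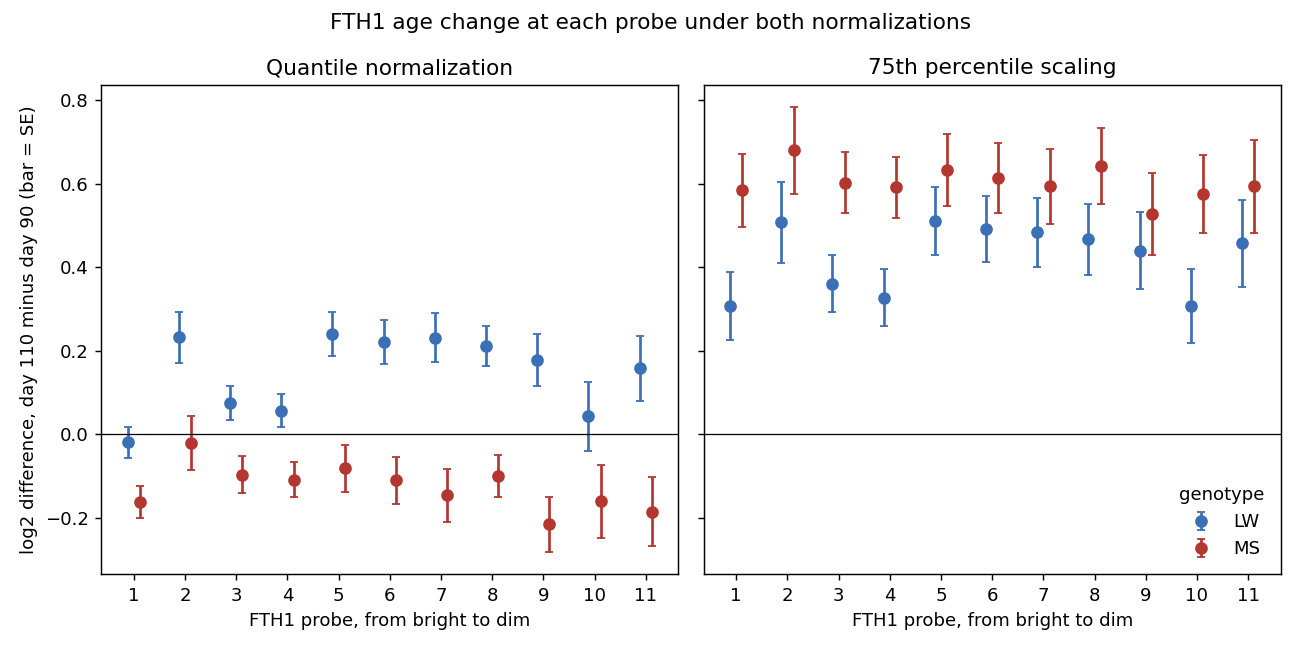
Age change (day 110 minus day 90, log2, with SE) of the 11 FTH1 probes in LW and in MS under quantile normalization and under scaling to the 75th percentile of each array. Quantile values lie between -0.22 and 0.24 and scaled values between 0.31 and 0.68, so that the direction in MS turns with the normalization.

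HBB, the beta chain of haemoglobin, belongs to red cells, so its message can come from blood left in the tissue. In LW it ran from 10.36 through a median of 10.61 to 11.26 at day 90 and from 9.90 through 10.40 to 11.16 at day 110. In MS it ran from 10.35 through 10.48 to 10.80 at day 90 and from 10.25 through 10.46 to 10.54 at day 110. LWMS fetuses ran from 10.14 through 10.29 to 10.82 and then from 9.78 through 10.14 to 10.64. All groups of HBB overlapped between the ages.

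In MSLW, HBB ran from 10.52 through 10.75 to 11.30 at day 90, and the 5 fetuses of day 110 had levels of 10.85, 10.50, 10.50, 9.67 and 10.62. The age change of HBB was -0.19 (SE 0.08, adjusted p = 0.0184), not called, and called without the first MSLW fetus of day 110 (-0.22, adjusted p = 0.00825). HBB in MS differed from LW by -0.14 at day 90, and by -0.11 (95% interval -0.41 to 0.18) at day 110. Between the crosses at day 90, MSLW exceeded LWMS by 0.49 (SE 0.15, adjusted p = 0.117, unadjusted p = 0.00153 by limma).

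Other haemoglobin probes that the array names only in its descriptions were looked up after the values were seen. A bright alpha chain probe changed by -0.75 with age (SE 0.07, adjusted p = 5.22e-15) and a second beta chain probe by -0.51 (SE 0.10, adjusted p = 1.53e-05). Over the 61 fetuses, as deviations from their group means, HBB correlated with these at r = 0.58 (rho = 0.60) and r = 0.57, respectively. Another alpha chain probe, well above background on all 61 arrays, changed by -0.70 with age (SE 0.04, adjusted p = 4.19e-23 by limma). HBB correlated with that probe at only r = 0.13 (rho = 0.09). The erythroid marker list moved both ways, with 4 of 10 kept genes higher (EPB42, 1.35, and CA1, 0.80, among them) and 5 lower (SLC4A1, the band 3 anion exchanger, by -1.11). Among all tested probes 72.3% were called for age in either direction. Its summed intensity ran from 1739 to 6531 at day 90 and from 2308 to 4077 at day 110. The 1739 was 1 MSLW fetus, in a group with a median of 5605.5. The lowest sums of LW, MS and LWMS at day 90 were 4898, 5228 and 4412. Spots treated as missing add nothing to a sum. The part of residual blood in the haemoglobin and erythroid values was not tested.

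Set side by side, MS and LW at day 90 differed at 1 of 7 main probes (MB) and 1 of 25 member probes, against 12.8% of all probes. At day 110 they differed at 5 of 7 main probes (MB and TFRC higher in MS, FTL and HMOX1 lower, and FTH1 lower but turning to 0.24, adjusted p = 0.0214, under 75th percentile scaling). Of the 25 member probes 15 differed (4 higher and 11 lower), against 29% of all probes (13.7% higher and 15.2% lower). Of the 11 lower probes 8 were FTH1 probes, some of which share sequence, and none of the FTH1 probes was called as lower under the scaling. Among the main probes only MB, TFRC and HMOX1 stayed called under the scaling. The main probe of TFRC was kept only through groups of day 110, so its call carries no weight here. The brightest and the middle TFRC probe were each called as higher in MS. The age changes of the 2 breeds differed at 0 of 7 main probes, with 3 at an unadjusted p under 0.05 by limma. With normexp correction 1 was called, the main probe of TFRC, which carries no weight here either.

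Within the genotypes, the number of main probes called for age was 4 of 7 in LW and 5 of 7 in each of MS, LWMS and MSLW, where the backgrounds were 45.3%, 56.6%, 50.9% and 44.6% of all probes. MB, TFRC, HMOX1 and FTL were called in all 4 genotypes, and the fifth was FTH1, whose direction turns to higher under 75th percentile scaling in each genotype. The main probe of TFRC was kept only through groups of day 110, so its calls carry no weight in these counts. The brightest and the middle TFRC probe were each called as higher in each genotype. With the slide as a block the FTH1 value in MSLW was -0.12 (adjusted p = 0.0113), no longer called, and over the settings run, the scaling with its opposite direction included, FTH1 was called in 6 of 15 in MSLW and in 11 of 15 in LWMS.

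The reciprocal crosses differed in which parent gave each breed's genome. All LWMS fetuses had MS dams and all MSLW fetuses LW dams, so parent of origin cannot be told apart from the breed of the dam. MSLW minus LWMS was called at 0 of 7 main probes at day 90 (1 at an unadjusted p under 0.05 by limma), against 0.5% of all probes, and at 0 of 7 at day 110 (2 unadjusted), against 0.917%. At day 110 the MB difference was 0.48 (SE 0.20, 95% interval 0.09 to 0.88, adjusted p = 0.205) and the TF difference 0.76 (SE 0.32, 95% interval 0.11 to 1.41, adjusted p = 0.23). For HMOX1 the difference was 0.22 (95% interval -0.15 to 0.59) and for TFRC 0.03 (95% interval -0.45 to 0.51).

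Against the mean of the pure breeds, the mean of the crosses was called at 0 of 7 main probes at day 90 (1 at an unadjusted p under 0.05 by limma), against 0.0495% of all probes, and at 0 of 7 at day 110 (0 unadjusted), against 0.0778%. The largest estimate at day 90 was that of MB, at 0.29 (95% interval 0.04 to 0.54), and its estimate at day 110 was -0.07 (95% interval -0.33 to 0.20).

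The other genes of haem and iron handling were read from 7 lists, each gene by its main probe. Beside the members, 76 genes were tested, of which 42 rose and 17 fell with age over the genotypes, and 22 were higher and 4 lower in MS at day 110, beside 72.3% and 29% of all probes called in these comparisons. These shares, with 37.3% of all probes higher and 35% lower with age, are the background of every list count that follows. Haem synthesis was the most uniform list: 10 of 11 kept genes rose and 0 fell with age, with a median of 0.48, the same counts as under 75th percentile scaling. Among them were CPOX (0.74), which makes protoporphyrinogen, UROS (0.73), which closes the tetrapyrrole ring, the mitochondrial transporter ABCB10 (0.71) and the porphyrin transporter ABCB6 (0.69). At day 110, 7 of the 11 were higher in MS and 0 lower, with a median of 0.38, led by ABCB6 (0.61, adjusted p = 2.0e-06), ALAD (0.49), which joins the first pyrrole, and UROS (0.45). ALAS2, the erythroid first enzyme of the pathway, rose by 0.34 with age and differed by 0.14 between the breeds (adjusted p = 0.613). Its probe was dim, well above background on 46 of 61 arrays.

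Of 23 kept genes of mitochondrial iron and iron-sulphur clusters 16 were higher with age and 1 lower (20 and 0 under the scaling), with a median of 0.52. Among all tested probes 72.3% were called for age, a share close to that of the list, and 37.3% were higher. HSPA9, the chaperone that hands clusters to their targets, rose by 1.43, the cluster protein CISD1 by 1.21, the late assembly factor ISCA1 by 1.19 and the electron donor FDX1 by 1.12. At day 110, 6 were higher and 1 lower in MS, against 29% of all probes called, with the mitochondrial iron importer SLC25A37 at 0.62 and the complex I assembly factor NUBPL at -1.06.

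Haem breakdown and transport moved both ways, with 5 of 17 genes higher and 8 lower at day 110 (5 and 6 under the scaling). HMOX2, the constitutive haem oxygenase, rose by 2.16 (SE 0.09, adjusted p = 3.66e-29) while HMOX1 fell, and biliverdin reductase B (BLVRB), which works on the product of both, rose by 1.38. FLVCR2, a transporter first described for haem, fell by 1.74, and the haem-binding protein HEBP2 fell by 1.31. In MS at day 110, 4 of the 17 were higher and 3 lower, with BLVRB at 1.21, HMOX2 at 0.74 and FLVCR2 at -0.75.

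Among genes of iron uptake and export, 6 of 14 were higher and 2 lower at day 110 (7 and 2 under the scaling). STEAP4 and STEAP3, which reduce iron before it leaves the endosome, rose by 3.34 and 1.61, lactoferrin (LTF) rose by 0.63, and NEO1, a partner of haemojuvelin, fell by 0.92. At day 110 STEAP3 was higher in MS by 1.86 and haemojuvelin (HJV) by 0.79, while STEAP4 was lower by -1.08, and in all 4 genes were higher and 1 lower. STEAP3 and TFRC, which act together in taking up transferrin iron, thus both rose with age and were both higher in MS at day 110.

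In the storage list, 2 of 6 genes were higher and 4 lower at day 110, and under the scaling 4 were higher and 1 lower. NCOA4, which brings ferritin to the lysosome, rose by 0.60 and the iron chaperone PCBP1 by 0.22, CYBRD1, an iron reductase, changed by -0.37 (adjusted p = 0.00357) but by 0.03 (adjusted p = 0.784) under the scaling, and PCBP2 changed by -0.17, turning to 0.27 under the scaling. Among the sensing genes 4 of 6 were higher and 2 lower (5 and 1 under the scaling), with ACO1, the iron regulatory protein that is also an aconitase, at 1.74, the hypoxia-inducible factor EPAS1 at 0.87, FBXL5, which marks an iron regulatory protein for degradation, at 0.23 and the related hypoxia factor HIF1A at -0.60. In MS at day 110 ACO1 was higher by 1.49 and EPAS1 by 0.81, and 0 sensing genes were lower.

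The globin list held 6 kept genes beside which MB stood alone in rising: 1 was higher and 3 lower with age, namely AHSP, the chaperone of the alpha chain (-0.88), cytoglobin, CYGB (-0.70), and the embryonic HBE1 (-0.69). At day 110 MB was also the only one of the 6 that was called between the breeds.

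**Figure D4:**
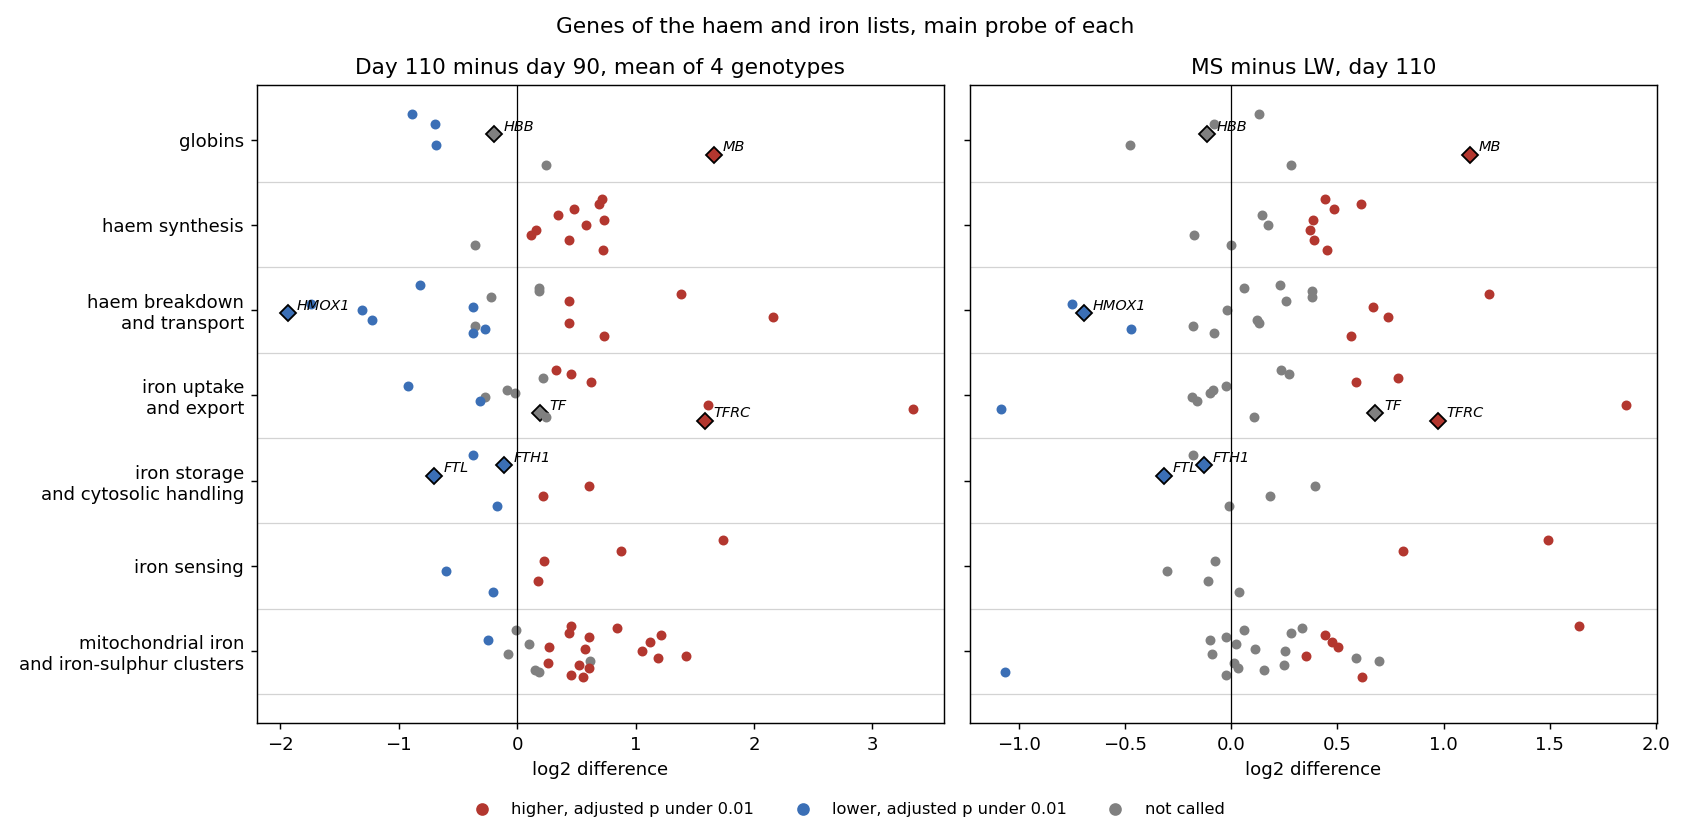
Log2 difference (horizontal axis) of each tested gene of the 7 haem and iron lists, by its main probe, for day 110 minus day 90 over the 4 genotypes and for MS minus LW at day 110. Diamonds mark named members, with called genes in red (higher) and blue (lower) and the rest in grey. Haem synthesis has 10 of 11 genes higher with age and 7 of 11 higher in MS, and the storage genes turn with the normalization, FTH1 among them.

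Age changes that differed between the pure breeds were found at 5 of these 76 genes, all more positive in MS, which is close to the 5.96% of all probes called, and these genes were chosen after their values were seen. Under 75th percentile scaling BLVRB, BOLA1, CISD1, CPOX, HSPA9 and NFU1 were called too. STEAP3 rose by 0.72 in LW and by 2.38 in MS (adjusted p of the difference 9.62e-06). PPOX, a late enzyme of haem synthesis, changed by -0.12 in LW and 0.42 in MS (adjusted p = 0.00268), SLC25A37 by 0.18 and 0.71 (adjusted p = 0.00633), and FDXR, which feeds electrons to the ferredoxins, by -0.10 and 0.61 (adjusted p = 0.000417). HEBP2 fell in both, by -1.81 in LW and -0.62 in MS (adjusted p = 0.00103).

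The members also differed in how they varied between fetuses of the same group. Over the 61 fetuses, as deviations from the 8 group means, FTL and HMOX1 had r = 0.51 (rho = 0.33), which was 0.41 without the 2 fetuses farthest from the median of FTL, and by Pearson's r over all 61 fetuses the other pairs lay within 0.3 of 0. Without the 2 farthest fetuses r was 0.36 for FTH1 and FTL, -0.34 for TFRC and FTL and -0.33 for HBB and FTH1, and the rank correlation of MB and FTL was 0.31. Among 9134 other gene symbols, the genes most like MB by this measure were TMOD4, a tropomodulin of skeletal muscle (r = 0.63), TREX1 (r = 0.62) and SUCLG2, a citric acid cycle enzyme (r = 0.62). For FTL they were GABARAP (r = 0.80), NPC2 (r = 0.78) and CTDSPL (r = 0.77), and for HMOX1 they were POSTN (r = 0.67), RPS4 (r = 0.66) and TBXA2R (r = 0.66).

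For TFRC the nearest were the muscle genes CASQ1 and TPM1 (r = 0.55 for both) and LPCAT3 (r = 0.53), and for TF they were S100A6 (r = 0.59), FITM1 (r = 0.57) and PREX1 (r = 0.56). All correlations of TFRC, that with FTL included, used its dim main probe, well above background on 43 of 61 arrays. For HBB they were RAB34 (r = 0.68), RPL7A (r = 0.65) and GYS2 (r = 0.64). The genes nearest to FTH1, FBXW9 (r = 0.70), DIP2B (r = 0.69) and CBL (r = 0.69), had lower values without the 2 farthest fetuses, with r = 0.53 for FBXW9 and 0.50 for CBL. Those of HMOX1 with POSTN (0.56) and of TF with FITM1 (0.43) and PREX1 (0.48) were lower without them as well. These correlations share arrays and slides and are given without a test.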

How the data were processed

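Total RNA of the longissimus muscle of 61 male pig fetuses was labelled with Cy3 and hybridized to 1-colour Agilent porcine arrays. For each array, spot intensity values were deposited by the authors, background-corrected by Agilent Feature Extraction 10.10.1.1 (per the labels), and a table of log2 values of 44368 spots that the authors had quantile normalized, used here as an alternative after matching its identifiers to spots by row number (r of 0.986 to 0.992 per array). Gene names (unit other) are those deposited in the scanner files, and can be old.

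The background-corrected intensity of 60306 non-control spots was log2 transformed and quantile normalized, non-uniform spots by the scanner software's mark were treated as missing (4 to 802 per array), and spots of a probe were averaged. A probe was tested if, in 1 or more groups, 80% or more of the arrays had it well above background (42436 of 60305). The 8 group means were fitted with limma 3.58.1 (lmFit and eBayes, R 4.3.3), with two-sided tests, Benjamini-Hochberg adjustment over all kept probes and a threshold of 0.01. The authors' random effect of the dam was left out. Figures used matplotlib 3.10.9. The fit was tested on simulated data.

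All 9 genes were named, with every probe. The main probe was the brightest kept probe in the study's gene lists, else the brightest so named by the array. From each pathway list, up to 4 called genes with the largest age change and up to 3 called between MS and LW at day 110 were named, except for 1 gene that is not reported here. Members and lists were chosen with earlier results of these data known. Alternatives changed the signal column, background correction (normexp, offset 50), normalization (75th percentile scaling), the filter, marked spots, the slide as a block and the fetuses. The number of arrays limits the precision. Amino acid sequences, promoters and genome positions were not used here.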

Additional observations from a re-analysis of the deposited data

Results flagged for a closer look

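In 7 of the 56 groups of a main probe that were tested, a single fetus lay far from the others of its group by Dixon's criterion, which chance alone gives in about 1 in 20 groups. For HBB these were the highest LW fetus of day 90 (11.26, the next at 10.78) and the lowest MS fetus of day 110 (10.25, the next at 10.45). For FTH1 they were the lowest fetuses of LW at day 90 (18.18, the next at 18.29), of MSLW at day 90 (18.14, the next at 18.29) and of LW at day 110 (18.21, the next at 18.28). For HMOX1 it was the highest LWMS fetus of day 110 (10.40, the next at 9.82), and for TF the lowest LW fetus of day 110 (5.06, the next at 6.35). The 3 values of FTH1, that of TF and the HBB value of day 90 came from arrays of slide 8. Without the 7 fetuses of slide 8, or without the 5 fetuses concerned, settings chosen after seeing the data, no count of called main probes moved by more than 1.5 times.

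At 5 FTH1 probes the change from day 90 to day 110 in MS differed from that in LW, by -0.32 (adjusted p = 0.00266), -0.33 (adjusted p = 0.00226), -0.38 (adjusted p = 0.00204), -0.31 (adjusted p = 0.00155) and -0.39 (adjusted p = 0.00214) with limma and quantile normalization. Under 75th percentile scaling the differences of the 11 FTH1 probes ran from 0.09 to 0.28 and 0 were called.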

How the results depend on the processing

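MB, TFRC, HMOX1 and FTL kept their direction and call for the age change over the genotypes, and MB its call between MS and LW at both ages, under every alternative in which they were tested. The calls of TFRC in this section are those of its dim main probe, kept only through groups of day 110, and carry no weight. The main probe of FTH1 turned its direction under 75th percentile scaling, to 0.43 over the genotypes, 0.31 in LW, 0.58 in MS, 0.45 in LWMS, 0.40 in MSLW and 0.24 for MS minus LW at day 110. At day 110 the number of main probes called between MS and LW went from 5 to 3 with the median signal, the deposited log2 values, the scaling, no filter, and LW and MS fitted alone, with FTH1 and FTL lost and MB, TFRC and HMOX1 kept. The number whose age change differed between MS and LW went from 0 to 1 (TFRC) with normexp. Over all probes, the share of calls in that comparison that were higher in MS moved from 42.9% to 63.7% under the scaling. The causes were not tested. No paired analysis was possible because no replicate number in the labels links fetuses of different groups, and the slide was fitted as a block instead. Dim probes limit TFRC and TF, and SLC40A1 and ALAS1 could not be read.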
